A study of Mus musculus with 6 samples.

Results

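The heat shock and endoplasmic reticulum (ER) chaperones were described in the cervical spinal cord of mice with imiquimod-induced dermatitis. They are 10 genes, taken by name from 54532 Ensembl genes with a value: the small heat shock proteins Hspb1 and Hspb8, the cytosolic chaperones Hspa1a, Hspa1b, Hspa8, Hsph1, Dnajb1 and Hsp90aa1, and the ER chaperones Hspa5 and Hsp90b1. RNA sequencing was done on cords of C57BL/6 mice, with 1 library per mouse. The 3 imiquimod mice had 50 mg of cream with 5% imiquimod, an agonist of Toll-like receptor 7, put on shaved neck skin daily for 2 days. The 3 vehicle mice had the same amount of cream without it. The labels name no transgene and give neither age nor sex. The cream was put on skin, and the tissue sequenced was the cord.

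Chaperones bind unfolded or partly folded proteins and keep them from clumping. Small heat shock proteins hold such proteins without using ATP and pass them to the Hsp70 and Hsp90 machines of the cytosol, whose genes are switched on by heat shock factor 1 (Hsf1) when misfolded protein builds up there. In the ER lumen the related proteins BiP (Hspa5) and Grp94 (Hsp90b1) do this work, and their genes are switched on by Atf6 and Xbp1 in the unfolded protein response. Spinal motor neurons are known for their dependence on these systems, and mutations of human HSPB1 and HSPB8 cause motor neuropathies. Hspb1 is also a gene that reactive astrocytes are known to switch on.

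The small heat shock protein genes were higher in imiquimod cords, with Hspb1 raised 3.05-fold and Hspb8 1.55-fold. Of the ER chaperones, Hspa5 was 1.28-fold higher, and Hsp90b1, at 1.19-fold, did not pass the test. None of the 6 cytosolic chaperones passed in either direction, among them the heat-inducible Hspa1a, Hspa1b and Dnajb1. In all, 3 of the 10 genes rose and 0 fell, against 8.74% higher and 5.34% lower of the 16513 genes tested. Values are FPKM, which is fragments divided by exon length and by a measure of the library's size. The test was limma on log2(FPKM + 0.1) over all genes, with Benjamini-Hochberg adjustment and a threshold of 0.05. Without any one of vehicle replicates 1, 2 and 3 or imiquimod replicate 3, 2 of the 10 genes passed, Hspb1 and Hspb8. The median log2 change of the 10 genes was -0.04, and that of all genes tested was -0.01.

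The upstream sequences of 5 of the genes are shown because each class is among them and because the elements for Hsf1 and for Atf6 lie in such windows. Each is the stretch of 250 bases before the RefSeq start, read 5′ to 3′ on the gene's own strand (RefSeq, GRCm38.p6). The first 3 lines are chr5:135887669-135887918 on the + strand, chr5:116422865-116423114 on the - strand and chr17:34959239-34959488 on the - strand. In these, capitals mark the heat shock element searched, GAANNTTC or TTCNNGAA, both of which read the same on either strand.
Hspb1: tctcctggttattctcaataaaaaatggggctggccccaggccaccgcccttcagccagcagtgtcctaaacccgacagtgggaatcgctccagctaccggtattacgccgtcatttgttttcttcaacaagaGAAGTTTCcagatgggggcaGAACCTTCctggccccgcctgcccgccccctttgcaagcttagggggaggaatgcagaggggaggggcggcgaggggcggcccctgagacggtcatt
Hspb8: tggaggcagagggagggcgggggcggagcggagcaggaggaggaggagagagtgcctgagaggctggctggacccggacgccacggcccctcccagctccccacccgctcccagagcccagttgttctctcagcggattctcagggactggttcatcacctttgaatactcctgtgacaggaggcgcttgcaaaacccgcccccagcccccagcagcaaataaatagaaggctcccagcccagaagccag
Hspa1b: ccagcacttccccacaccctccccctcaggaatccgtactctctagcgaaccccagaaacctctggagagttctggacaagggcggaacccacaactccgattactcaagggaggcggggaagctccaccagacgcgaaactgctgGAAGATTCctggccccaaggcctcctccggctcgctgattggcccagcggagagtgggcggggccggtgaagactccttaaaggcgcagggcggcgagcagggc
In the ER chaperone genes, chr2:34771840-34772089 on the + strand and chr10:86705445-86705694 on the - strand, capitals mark the ER stress response element, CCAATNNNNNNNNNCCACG, on either strand.
Hspa5: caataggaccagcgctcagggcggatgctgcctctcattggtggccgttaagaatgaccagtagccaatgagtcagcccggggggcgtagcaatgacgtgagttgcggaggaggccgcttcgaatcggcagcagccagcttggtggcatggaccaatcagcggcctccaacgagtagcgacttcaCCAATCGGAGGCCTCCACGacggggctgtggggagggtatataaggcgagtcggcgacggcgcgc
Hsp90b1: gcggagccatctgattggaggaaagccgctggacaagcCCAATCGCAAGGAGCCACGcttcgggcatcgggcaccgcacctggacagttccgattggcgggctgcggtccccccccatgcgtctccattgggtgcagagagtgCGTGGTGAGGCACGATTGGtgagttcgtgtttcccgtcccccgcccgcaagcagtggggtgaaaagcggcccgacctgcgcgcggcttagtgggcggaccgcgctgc

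The heat shock element occurred at 2 places upstream of Hspb1, beginning 117 and 97 bases before the start, and at 1 place upstream of Hspa1b, beginning 104 bases before it. The window of Hspb8 held none. A heat shock element was present in 12.8% of 32851 such windows over all genes. The longer form of 3 units, GAANNTTCNNGAA or TTCNNGAANNTTC, which contains the shorter one, was in 0.466% of windows and in none of those matched to the 10 genes. The window of Hspa1a differed from that of Hspa1b at 3 of 250 bases and held the same element at the same distance, and Hsph1 held 1 as well. The ER stress response element was in 0.113% of windows. It occurred at 1 place upstream of Hspa5, beginning 65 bases before the start, and at 2 places upstream of Hsp90b1, beginning 212 and 107 bases before the start. These genes are among those on which the element was first described, so the matches are background to the levels. The interferon-stimulated response element, searched as GAAANNGAAA on both strands, was in 2.98% of windows and in none of those matched to the 10 genes. Windows were matched for 8 of the 10 genes, and Hspa8 and Hsp90aa1 were not matched.

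The 6 libraries held 21242415 to 23200996 recovered fragments in imiquimod mice and 18174411 to 20672881 in vehicle mice. Every imiquimod library was thus deeper, with an exact permutation p of 0.1 on both sides, and no lower p can be had from 3 mice a group. Gapdh was listed at 26.4 FPKM in imiquimod replicate 3, against 1.56 to 2.15 FPKM in the other 5 libraries, and 18.2% of its windows of 100 bases also occur in other annotated genes. Markers of neurons summed to 1199 to 1597 FPKM in imiquimod and 1708 to 1835 FPKM in vehicle cords, and those of oligodendrocytes to 5762 to 7383 FPKM in imiquimod and 8394 to 8995 FPKM in vehicle cords. All 12 interferon-stimulated genes followed here were higher in imiquimod cords, with a median log2 change of 3.79. No marker of any list was at 0 in all 6 libraries. In whole cord, fewer cells of a type and less RNA per cell cannot be told apart.

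Hspb1 encodes Hsp25, the mouse counterpart of human HSP27, which binds unfolded proteins and steadies actin filaments. The gene (ENSMUSG00000004951) lies at chr5:135887919-135889563 on the + strand of mm10, with 1031 bases of exon. It stood at 114, 89.1 and 144 FPKM in the imiquimod libraries, against 36.0, 38.3 and 37.4 FPKM in the vehicle libraries. The groups did not overlap, with imiquimod above in every library as in 19.8% of all genes tested, and the imiquimod mice were spread widely while the vehicle mice were nearly alike. The mean was 116 ± 27.7 FPKM in imiquimod and 37.2 ± 1.17 FPKM in vehicle cords (SD, n = 3 each). The log2 change was 1.61 ± 0.16 (SE), with a 95% interval of 1.22 to 1.99 and a limma adjusted p of 0.00233. It passed under all 18 alternatives, with log2 changes of 1.44 to 1.78, the lowest of them without imiquimod replicate 3.

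Of the windows of 100 bases in the longest Hspb1 transcript, 42.7% also occur in another annotated gene, the processed pseudogene Hsp25-ps1 or the gene Gm9817. Hsp25-ps1 had 3, 17 and 14 recovered fragments in imiquimod and 1, 3 and 2 in vehicle libraries, and Gm9817 had 0, 0 and 0 against 0, 3 and 1. Hspb1 itself had 2429, 2053 and 3491 fragments in imiquimod and 657, 687 and 754 in vehicle libraries. The copies thus held few fragments beside Hspb1 in each library. How fragments with several matches were counted is not given in the sources used here.

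Hspb8 encodes Hsp22, which works with the co-chaperone Bag3 and with Hsc70 to send damaged proteins to autophagy. The gene (ENSMUSG00000041548, chr5:116408491-116422864, - strand) has no window of 100 bases in common with another annotated gene. It stood at 40.5, 41.7 and 48.1 FPKM in imiquimod libraries, against 26.5, 28.2 and 28.8 FPKM in vehicle libraries, with no overlap. The log2 change was 0.64 ± 0.08 (SE, 95% interval 0.44 to 0.83, limma adjusted p = 0.00469). It passed under all 18 alternatives, with 0.44 to 0.68 as the range. Both small heat shock protein genes were highest in imiquimod replicate 3. The ratio of Hspb1 to Hspb8 within a library was 2.82, 2.13 and 3.00 in imiquimod and 1.36, 1.36 and 1.30 in vehicle cords, a description with no test. Bag3 was 11.9 ± 1.09 FPKM in imiquimod and 11.5 ± 1.10 FPKM in vehicle cords (0.05, 95% interval -0.19 to 0.28) and did not pass.

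**Figure D1:**
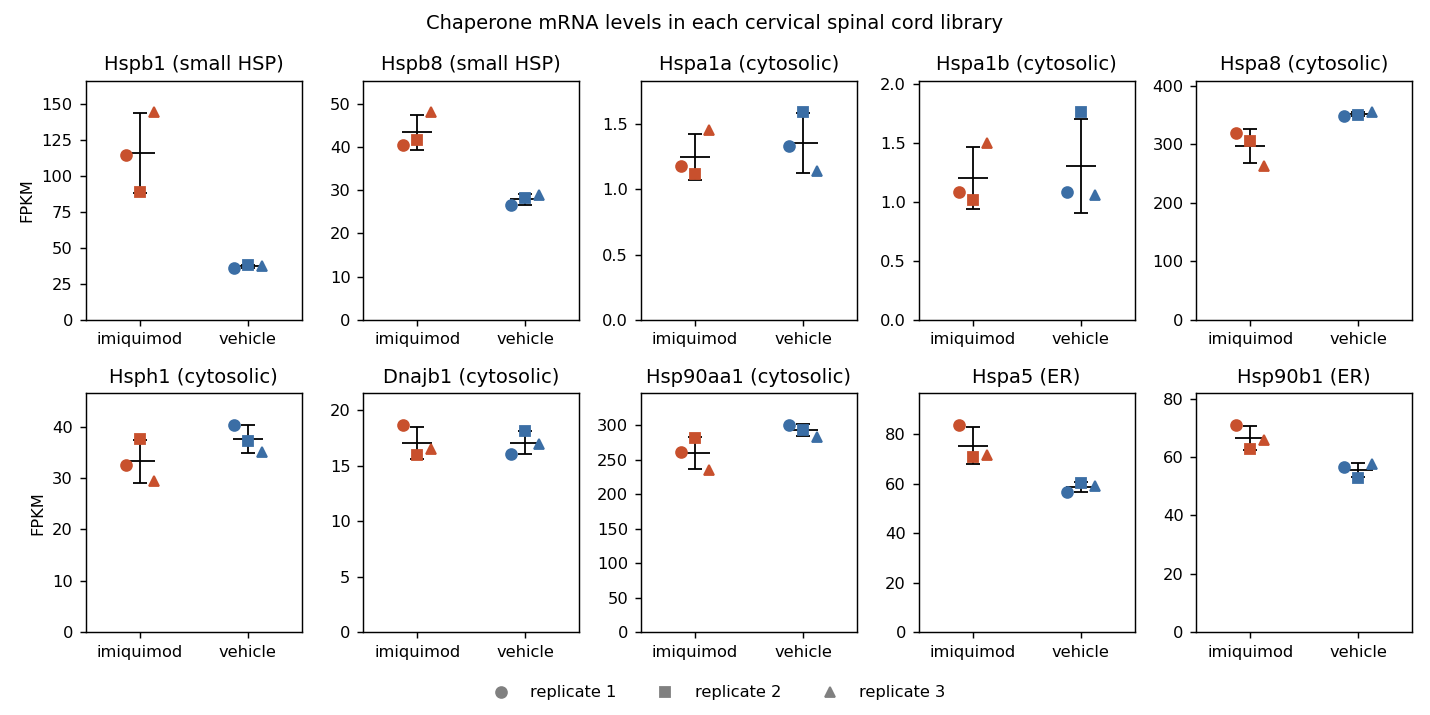
FPKM of the 10 chaperone genes in each library, imiquimod at left and vehicle at right, with the mean and SD (n = 3 each) as black bars and a marker shape per replicate number. Hspb1, Hspb8, Hspa5 and Hsp90b1 lie above the vehicle libraries in every imiquimod library, and Hspa8 and Hsp90aa1 lie below them.

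Hspa1a and Hspa1b encode the heat-inducible Hsp70 proteins, which fold clients in cycles of ATP use and are low in unstressed cells. They are neighbours at chr17:34969190-34972156 and chr17:34956436-34959238, both on the - strand and each a single exon. Hspa1a was listed at 1.18, 1.12 and 1.45 FPKM in imiquimod and 1.33, 1.59 and 1.14 FPKM in vehicle libraries. Hspa1b was at 1.09, 1.02 and 1.51 FPKM in imiquimod and 1.09, 1.76 and 1.06 FPKM in vehicle libraries. The groups overlapped for both, and the level was low in every library. The log2 changes were -0.11 (95% interval -0.51 to 0.30) and -0.09 (95% interval -0.66 to 0.48). Changes within these intervals, in either direction, are not excluded. Each gene had 54 to 101 fragments per library, and no limit of detection was computed. The 2 genes share 56.5% of the Hspa1a windows and 49.9% of the Hspa1b windows of 100 bases with each other, with Gm20481, with the antisense gene Gm10501 or with Hspa1l, so their single values are uncertain. Whether counting used strand is not given in the sources used here.

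Hspa8 encodes Hsc70, the Hsp70 protein made at all times, and was the most abundant of the 10 genes per length of transcript. It stood at 319, 306 and 264 FPKM in imiquimod libraries, against 349, 351 and 355 FPKM in vehicle libraries. Every imiquimod library lay below every vehicle library, as in 18.0% of all genes tested. The log2 change was -0.25 ± 0.09 (SE, 95% interval -0.46 to -0.04), which did not pass (limma adjusted p = 0.114). It passed in 3 of 18 alternatives, namely quantile normalization, rescaling to TPM and voom with sample quality weights (adjusted p of 0.0102 to 0.0412). Of its windows, 32.1% also occur in 8 other annotated genes, most of them pseudogenes. The most counted of these, Gm8355, had 47, 40 and 26 fragments in imiquimod and 48, 55 and 37 in vehicle libraries, beside 26226 to 29872 fragments of Hspa8 itself. The lowest Hspa8 value was that of imiquimod replicate 3, without which the log2 change was -0.17.

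Hsp90aa1 encodes the inducible cytosolic Hsp90, which holds kinases and steroid receptors ready for use. It stood at 261, 282 and 235 FPKM in imiquimod libraries, against 301, 293 and 284 FPKM in vehicle libraries. The imiquimod libraries lay below the vehicle libraries, closely so for replicate 2. The log2 change was -0.18 ± 0.09 (SE, 95% interval -0.38 to 0.03, limma adjusted p = 0.217) and passed in none of the 18 alternatives. Some of its windows, 47.5%, also occur in pseudogenes, of which Gm12346 had 251, 372 and 376 fragments in imiquimod and 339, 306 and 312 in vehicle libraries. Its constitutive paralog Hsp90ab1 averaged 432 FPKM in imiquimod and 425 FPKM in vehicle cords (0.02, 95% interval -0.15 to 0.20), and its sign turned with quantile normalization (-0.10) and with length and GC trends removed (-0.16).

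Hsph1 encodes Hsp105, which swaps nucleotides on Hsp70, and Dnajb1 encodes the Hsp40 protein that hands clients to Hsp70. Hsph1 was at 32.6, 37.6 and 29.4 FPKM in imiquimod libraries and 40.4, 37.3 and 35.1 FPKM in vehicle libraries. Dnajb1 was at 18.7, 16.0 and 16.5 FPKM in imiquimod libraries and 16.1, 18.1 and 16.9 FPKM in vehicle libraries. Both pairs of groups overlapped. The log2 change of Hsph1 was -0.18 (95% interval -0.43 to 0.06, limma adjusted p = 0.277). That of Dnajb1 was -0.00 (95% interval -0.20 to 0.19, limma adjusted p = 0.994), turning to 0.01 when rescaled to TPM and to 0.02 to 0.04 without vehicle replicate 2 or imiquimod replicate 2 or 3. Over all 16513 genes tested, the gene ranked 4984 by limma p stood at an unadjusted 0.04996. In limma, 1 of the 6 cytosolic chaperones, Hspa8, was lower at an unadjusted p under 0.05. By voom 0 of the 6 passed, and with sample quality weights 1 did.

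Hspa5 encodes BiP, the Hsp70 of the ER lumen, which also keeps the sensors of the unfolded protein response silent. The gene (ENSMUSG00000026864) lies at chr2:34771970-34777547 on the + strand. It stood at 83.8, 70.7 and 71.4 FPKM in imiquimod libraries, against 56.4, 60.4 and 58.9 FPKM in vehicle libraries. The groups did not overlap, and imiquimod replicate 1 was the highest. The log2 change was 0.36 ± 0.08 (SE, 95% interval 0.16 to 0.55, limma adjusted p = 0.0327). The call ended without any one vehicle library or without imiquimod replicate 3 (adjusted p of 0.0538 to 0.132), and also with no filter on low values, with no mean-variance trend and with a replicate block (0.0607 to 0.0845). The direction was the same in all 18 alternatives, at 0.28 to 0.40.

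Hsp90b1 encodes Grp94, the Hsp90 of the ER lumen, on which Toll-like receptors and integrins depend for folding. The gene (ENSMUSG00000020048) lies at chr10:86690209-86705509 on the - strand. It stood at 71.1, 62.7 and 65.7 FPKM in imiquimod libraries, against 56.7, 52.8 and 57.4 FPKM in vehicle libraries, with no overlap. The log2 change was 0.26 ± 0.07 (SE, 95% interval 0.09 to 0.42), just short of the threshold (limma adjusted p = 0.0559). It passed without imiquimod replicate 2, rescaled to TPM and by voom (adjusted p of 0.0255 to 0.0496). The ratio of Hspa5 to Hsp90b1 was 1.18, 1.13 and 1.09 in imiquimod and 0.995, 1.14 and 1.03 in vehicle cords, so the groups overlapped in it.

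**Figure D2:**
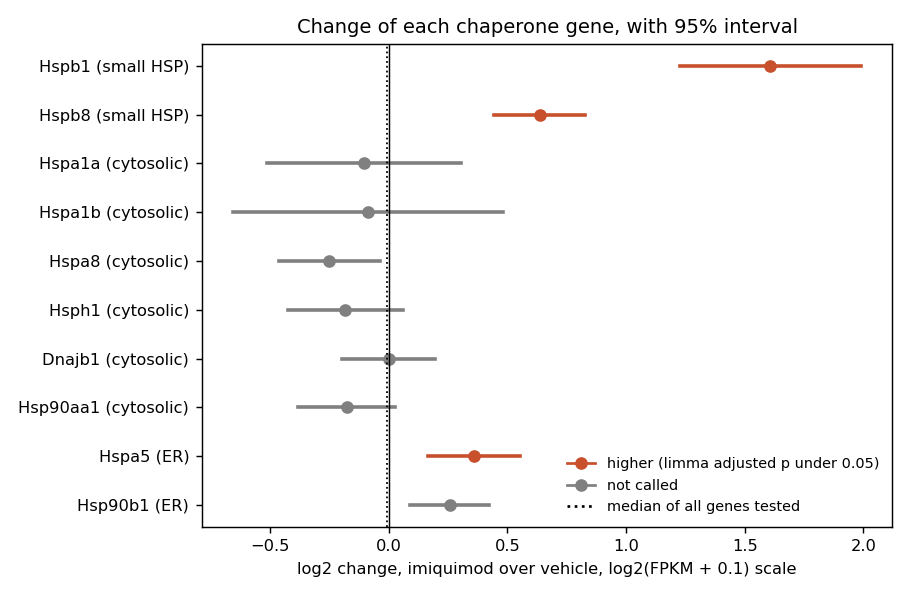
Log2 change of each gene, imiquimod over vehicle, as a point with its 95% interval on the log2(FPKM + 0.1) scale, red where the limma adjusted p was under 0.05. Hspb1 (1.61), Hspb8 (0.64) and Hspa5 (0.36) are red, the interval of Hsp90b1 lies above 0, and those of the cytosolic genes other than Hspa8 cross 0.

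By class, the summed level of the small heat shock protein genes was 155, 131 and 192 FPKM in imiquimod and 62.6, 66.6 and 66.2 FPKM in vehicle libraries. That of the ER genes was 155, 133 and 137 FPKM in imiquimod and 113, 113 and 116 FPKM in vehicle libraries. That of the cytosolic genes was 634, 644 and 548 FPKM in imiquimod and 709, 703 and 693 FPKM in vehicle libraries, most of it Hspa8 and Hsp90aa1. The small and ER classes were thus higher in every imiquimod library and the cytosolic class lower. The sum over all 10 genes was 878 to 944 FPKM in imiquimod and 876 to 885 FPKM in vehicle libraries, which overlapped. Small heat shock proteins made up 14.4% to 21.9% of that sum in imiquimod and 7.07% to 7.56% in vehicle libraries. The cytosolic genes made up 62.5% to 70.9% in imiquimod and 79.1% to 80.2% in vehicle libraries. Sums over chosen genes are given as a description, and the difference between classes was not tested.

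**Figure D3:**
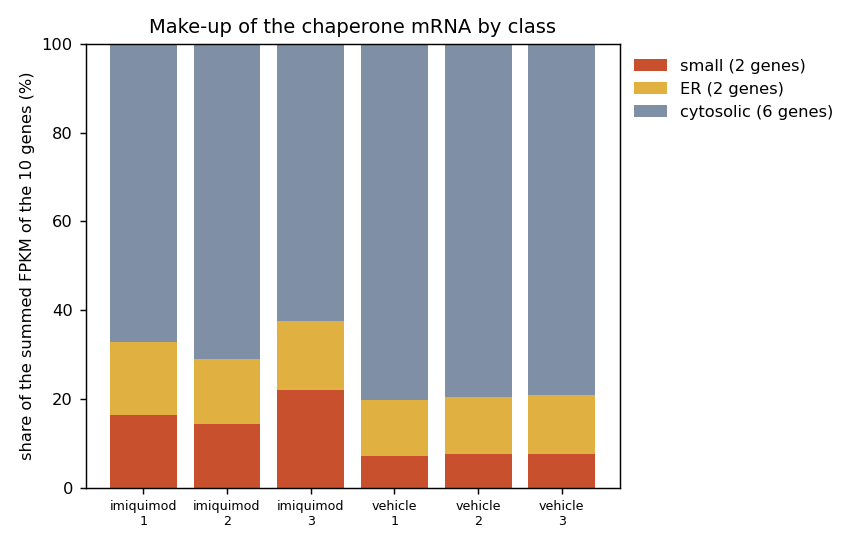
Share of the summed FPKM of the 10 genes taken by each class, as stacked bars per library, imiquimod replicates at left and vehicle replicates at right. The small class reaches 14.4% to 21.9% in imiquimod and 7.07% to 7.56% in vehicle libraries.

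In order of level per length, imiquimod cords had Hspa8, Hsp90aa1, Hspb1, Hspa5, Hsp90b1, Hspb8, Hsph1, Dnajb1, Hspa1a and Hspa1b. Among neighbours in that order, the ranges overlapped for Hspa8 and Hsp90aa1, for Hspa5 and Hsp90b1 and for Hspa1a and Hspa1b. Vehicle cords had Hspa5, Hsp90b1 and Hsph1 ahead of Hspb1 and Hspb8. There the ranges overlapped for Hspa5 and Hsp90b1, for Hsph1 and Hspb1 and for Hspa1a and Hspa1b. The spread between mice, as a coefficient of variation, was larger in imiquimod than in vehicle cords for 8 of the 10 genes, and for 68.8% of all genes tested. It was 23.9% against 3.13% for Hspb1 and 9.83% against 0.887% for Hspa8. Imiquimod replicate 3 was the highest of its group in Hspb1, Hspb8, Hspa1a and Hspa1b and the lowest in Hspa8, Hsp90aa1 and Hsph1. Imiquimod replicate 1 was the highest in Hspa5, Hsp90b1 and Dnajb1.

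Genes with the profile nearest to a member were sought among 7959 genes with a mean of at least 5 FPKM, by the root-mean-square difference of centred log2 values over the 6 libraries. Nearest to Hspb1 were Alox5ap (0.08), Rarres2 (0.11) and Clic1 (0.13). Alox5ap, the activating protein of 5-lipoxygenase, was 8.32 ± 2.24 FPKM in imiquimod and 2.84 ± 0.10 FPKM in vehicle cords (SD, n = 3 each). Rarres2, which encodes chemerin, was 8.45 ± 2.94 FPKM in imiquimod and 2.37 ± 0.13 FPKM in vehicle cords. Alox5ap and Rarres2 had vehicle means under 5 FPKM, so they entered the search only through their imiquimod levels. Clic1 was at 9.16 ± 1.25 FPKM in vehicle cords. Nearest to Hspa8 were Ldhb, a lactate dehydrogenase subunit, Pfn2 and the co-chaperone Dnajb2, at 0.01 to 0.03. Nearest to Hspa5 were Chmp4b, Pak1ip1 and Mvb12a, at 0.01 to 0.02. These are descriptions over 6 libraries that share their groups and depths.

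Of all genes tested, 8.74% were higher and 5.34% lower. Among other small heat shock proteins, 4 of 9 genes were tested and 1 rose. This was Hspb6 (Hsp20), at 19.5, 16.1 and 19.6 FPKM in imiquimod and 6.88, 6.15 and 6.78 FPKM in vehicle libraries. Its log2 change was 1.46 ± 0.10 (SE, limma adjusted p = 6.82e-04), and it passed under all 18 alternatives. Cryab, the alpha-B crystallin abundant in oligodendrocytes, was 160 ± 19.0 FPKM in imiquimod and 193 ± 9.77 FPKM in vehicle cords and did not pass (-0.28, 95% interval -0.52 to -0.04, limma adjusted p = 0.117). It passed with quantile normalization and with length and GC trends removed (0.0249 to 0.0398).

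The limma calls in the next 3 lists stand beside 8.74% higher and 5.34% lower of all genes tested. Of 27 other cytosolic chaperones and co-chaperones, limma called 0 in either direction, with a median log2 change of 0.02. Over all 16513 genes tested, the gene ranked 4984 by limma p stood at an unadjusted 0.04996. Of the 27 genes, 4 were higher and 3 lower at an unadjusted p under 0.05. By voom 2 were higher and 1 lower, and with sample quality weights 1 was higher and 1 lower. Hsf1, the factor of the heat shock response, was 4.80 ± 0.25 FPKM in imiquimod and 4.41 ± 0.13 FPKM in vehicle cords (0.12, limma adjusted p = 0.327). Dnaja1, an Hsp40 induced by heat, was 35.2 ± 3.41 FPKM in imiquimod and 36.0 ± 0.48 FPKM in vehicle cords (-0.04), and Hspa4 was 41.8 ± 2.61 against 42.3 ± 1.62 FPKM (-0.02). Of the 8 subunits of the chaperonin TRiC, Cct3 rose (0.24, limma adjusted p = 0.0454), a call that ended without any one library and with no filter on low values, no mean-variance trend or the replicate block (0.0598 to 0.160). Of 11 mitochondrial chaperones limma called 0, while 2 were higher at an unadjusted p under 0.05 and voom called 0 with and without weights.

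Of 22 other ER chaperones and folding enzymes, 5 rose and 0 fell, against 8.74% higher and 5.34% lower of all genes tested. The median log2 change of the 22 genes was 0.22. Pdia4, a protein disulfide isomerase, was 27.6 ± 2.42 FPKM in imiquimod and 18.0 ± 1.96 FPKM in vehicle cords (0.62 ± 0.10 SE, limma adjusted p = 0.011). Calr, the lectin chaperone calreticulin, was 120 ± 8.42 FPKM in imiquimod and 93.1 ± 2.30 FPKM in vehicle cords (0.36 ± 0.07 SE, limma adjusted p = 0.0203). Pdia3, its partner isomerase, rose by 0.41 and Hyou1, the Hsp110 of the ER, by 0.29. Dnajc10, named after its value was seen, was the fifth (0.23, limma adjusted p = 0.0495). Canx, the membrane-bound relative of calreticulin, was 85.8 ± 1.34 FPKM in imiquimod and 81.7 ± 3.77 FPKM in vehicle cords and did not pass (0.07). The call of Pdia4 held under all 18 alternatives. Those of Calr and Pdia3 ended without any one vehicle library or without imiquimod replicate 3 (0.0533 to 0.0998), and that of Hyou1 without any one library other than imiquimod replicate 2 (0.0533 to 0.111). All 3 of these calls also ended with the replicate block, those of Calr and Hyou1 with length and GC trends removed, and that of Hyou1 with no mean-variance trend (0.0560 to 0.0798). Leaving out 1 library gave 1 to 8 higher, with 1 without imiquimod replicate 3 or any one vehicle library.

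Of 17 sensors, factors and degradation genes of the unfolded protein response, 6 rose and 0 fell. Of all genes tested, 8.74% were higher and 5.34% lower. The median log2 change of the 17 genes was 0.22. Ddit3 (Chop), a transcription factor of prolonged ER stress, was at 37.9, 31.8 and 31.1 FPKM in imiquimod libraries, against 13.3, 12.7 and 13.6 FPKM in vehicle libraries (1.34 ± 0.09 SE, limma adjusted p = 6.77e-04). Atf4, the factor that switches on Ddit3, was 87.3 ± 13.1 FPKM in imiquimod and 50.4 ± 0.99 FPKM in vehicle cords (0.78 ± 0.11 SE). Edem1, which takes misfolded glycoproteins to degradation, rose by 0.51, and Ppp1r15a, which restores translation, by 0.59. Trib3, also among the 6, was 0.816 ± 0.13 FPKM in imiquimod and 0.339 ± 0.06 FPKM in vehicle cords, with 11 to 14 fragments per vehicle library. Its vehicle mean lay under the filter of 0.5 FPKM, so it entered the test only through the imiquimod group. Trib3 and Syvn1 were the others, named after their values were seen. Named in the same way, the sensor genes Atf6 (log2 change -0.0007), Atf6b (0.05), Eif2ak3 (-0.03) and Ern1 (0.25) did not pass. Xbp1 was 24.2 ± 2.69 FPKM in imiquimod and 18.8 ± 1.90 FPKM in vehicle cords and did not pass (0.36, limma adjusted p = 0.0676), except without imiquimod replicate 2 (0.0344). The calls of Ddit3, Atf4 and Edem1 held under all 18 alternatives, and that of Ppp1r15a ended without vehicle replicate 1 or 3 or imiquimod replicate 1 or 3 (0.0742 to 0.102), and also with low values left unfiltered, no mean-variance trend or the replicate block (0.0508 to 0.0753). Leaving out 1 library gave 3 to 6 higher, with 3 without vehicle replicate 1 or 3 or imiquimod replicate 1 or 3. Over the 6 lists together, 13 of 89 tested genes rose (14.6%) and 0 fell. The shares of all genes tested were 8.74% higher, 5.34% lower and 14.1% in either direction. Without imiquimod replicate 1 or 3 the count higher in these 6 lists was 7 or 5, and without vehicle replicate 1, 2 or 3 it was 5, 6 or 5.

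**Figure D4:**
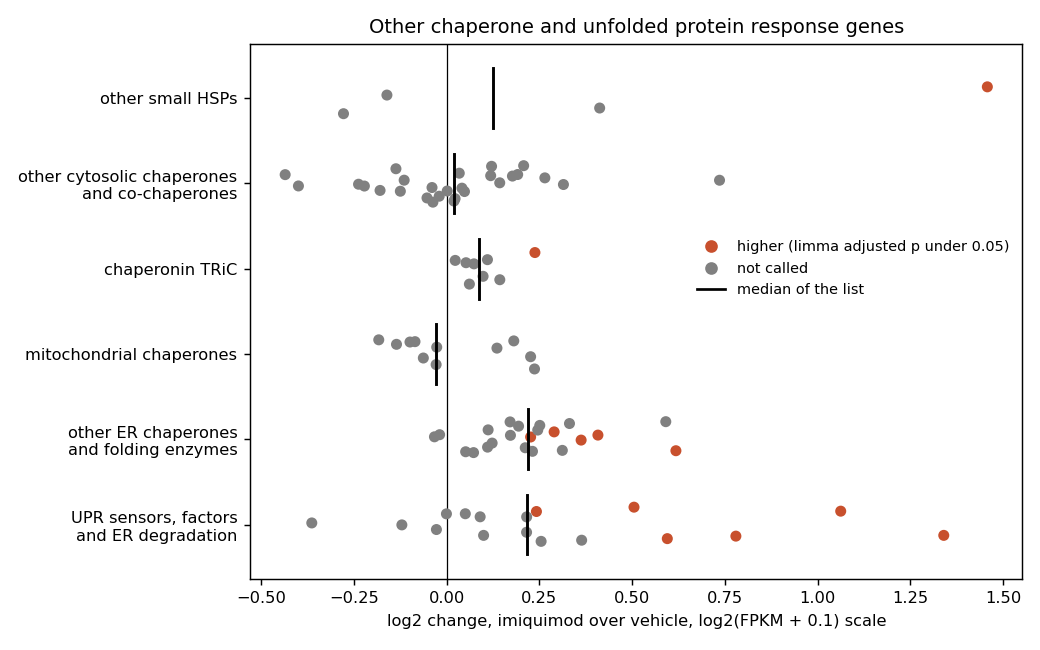
Log2 change of each tested gene of the 6 other chaperone lists, imiquimod over vehicle, red where the limma adjusted p was under 0.05, with a black bar at each list's median. The medians of the ER folding and unfolded protein response lists lie at 0.22, and Hspb6 stands at 1.46.

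Markers of several cell types moved between the groups as well. The counts below stand beside 8.74% higher and 5.34% lower of all genes tested. Endothelial markers summed to 142 to 149.9 FPKM in imiquimod and 80.6 to 84.6 FPKM in vehicle libraries, with 4 of 8 genes higher and 1 lower. Microglial markers summed to 121 to 157 FPKM in imiquimod and 98.4 to 111 FPKM in vehicle libraries, with 2 of 8 genes higher. Astrocyte markers summed to 1210 to 1474 FPKM in imiquimod and 1502 to 1589 FPKM in vehicle libraries, with 1 of 10 higher and 2 lower. Motor neuron markers summed to 53.5 to 89.7 FPKM in imiquimod and 104 to 112 FPKM in vehicle libraries, with 4 of 7 tested genes lower, none of which passed without any one vehicle library. Schwann cell markers summed to 86.2 to 273 FPKM in imiquimod and 276 to 378 FPKM in vehicle libraries, with 1 of 5 tested genes lower, Sox10, which did not pass without imiquimod replicate 3 or vehicle replicate 1 or 2. Markers of pericytes and smooth muscle, which are known to make Hspb6, summed to 42.6 to 51.3 FPKM in imiquimod and 52.4 to 59.8 FPKM in vehicle libraries. Of the 7 tested, 1 was higher (Kcnj8) and 1 lower (Rgs5, which made up much of the sum), with a median log2 change of 0.07, and neither passed without any one vehicle library. Skeletal muscle markers were low, at 2.40 to 3.14 FPKM in imiquimod and 2.26 to 3.38 FPKM in vehicle libraries. Markers of oligodendrocyte precursors had 3 of 8 genes lower, of which Enpp6 and Neu4 did not pass without imiquimod replicate 1 or 3 or any one vehicle library. Meningeal fibroblast markers summed to 12.9 to 118 FPKM in imiquimod and 39.0 to 75.1 FPKM in vehicle libraries, with 0 of 7 called. Within the imiquimod group each of the 7 was lowest in replicate 2 and highest in replicate 3, as was Hspb1. Red blood cell markers summed to 44.6 to 155 FPKM in imiquimod and 125 to 490 FPKM in vehicle libraries, with 0 of 5 called. Both sums overlapped between the groups. The part of these cell types in the chaperone levels was not tested.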

How the data were processed

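RNA was extracted with Trizol from flash-frozen cervical cords and sequenced with Illumina libraries, per the labels' protocols. The authors deposited FPKM, 1 value per gene and library. HISAT2 2.0.5, featureCounts 1.5.0-p3, DESeq2 1.16.1 and mm10 are named in the submitters' processing notes, with no roles. Symbols matched 54409 of 54532 IDs, and GENCODE M21 exon lengths 54495. FPKM times exon length gave whole fragments within 0.05 for 97.4% to 97.6% of values under 1000 fragments. The deposited scale followed median-of-ratios size factors, an inference from the values.

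Genes with a mean of at least 0.5 FPKM in either group were tested, all 10 members among them, with limma 3.58.1 (mean-variance trend, R 4.3.3) on log2(FPKM + 0.1), a scale that understates changes of low genes. Intervals are limma's. The fit was tried on simulated data with the same spread set for every gene and both groups. The real libraries differed from that setting, so the trial says little about the calls here. Tables and figures used Python 3.11.15. The members and lists were chosen with earlier results of these data known. All members were named, with up to 4 called genes per list by smallest p, chosen paralogs, and the 3 nearest profiles for Hspb1, Hspa8 and Hspa5. The 18 alternatives covered pseudocount, filter, scaling, length and GC content, test, block and left-out libraries.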

Additional observations from a re-analysis of the deposited data

How the results depend on the processing

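Over the 18 alternatives, Hspb1 and Hspb8 kept their calls and direction, Hspa5 kept its direction and its call in 11, and Hsp90b1 passed in 3. Of the 10 members, 1 was lower (Hspa8) with quantile normalization, rescaled to TPM and with voom and quality weights, against 0. Counts over all genes were 1444 higher and 882 lower. They were 508 lower with no filter on low values and 1544 lower (1258 higher) with length and GC trends removed. Leaving out 1 library gave 660 to 1690 higher and 187 to 1296 lower (660, 770 and 758 higher without vehicle replicates 1, 2 and 3, and 923 and 834 without imiquimod replicates 1 and 3), 2 to 4 members higher, and 5 to 15 higher and 0 to 1 lower in the other chaperone lists. Those lists held 13 higher and 0 lower. They held 8 higher with no filter, with no mean-variance trend and with the length and GC trends removed, and then 4 lower. They held 2 lower with quantile normalization and 1 with voom, without and with weights.

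The labels do not say whether replicate numbers pair the mice. Same-numbered libraries had correlations of deviations of 0.02, -0.10 and -0.03, within the range of -0.102 to 0.134 for differently numbered ones. With 3 mice a group, such correlations cannot decide whether the mice were paired. The replicate block gave 894 genes higher and 436 lower, with 2 members and 5 genes of the other lists higher. Values near 0 that changed sign were not called either way. With quantile normalization Hsp90ab1 was -0.10. Rescaled to TPM, Dnajb1 was 0.013. With length and GC trends removed, Bag3 was -0.14, Dnaja1 0.0064 and Hsp90ab1 -0.16. Over the fits without 1 library, the range was -0.069 to 0.043 for Dnajb1, -0.25 to 0.14 for Hspa1b, -0.22 to 0.0091 for Hspa1a, -0.12 to 0.020 for Dnaja1, -0.0695 to 0.0165 for Hspa4, -0.0215 to 0.12 for Bag3 and -0.0052 to 0.059 for Hsp90ab1. The cause was not tested. Hspa1a and Hspa1b had few fragments, at 54 to 101 per gene and library.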

Other observations

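Over all genes tested, 8.74% were higher and 5.34% lower in imiquimod cords. Of the 15 genes of the Hsp70 family, members included, 3 were higher, namely Hspa5, Hyou1 and Hspa12b, and 0 were lower. The median log2 change was -0.09, and the summed level was 570.1 to 643 FPKM in imiquimod and 668 to 670.3 FPKM in vehicle libraries, most of it Hspa8. Over all 16513 genes tested, the gene ranked 4984 by limma p stood at an unadjusted 0.04996. In the family, 3 genes were higher and 4 lower at an unadjusted limma p under 0.05. Voom called 3 higher and 2 lower, and with sample quality weights it called 3 higher and 3 lower. Leaving out 1 library gave 0 to 2 higher and 0 to 2 lower, with 0 higher without imiquimod replicate 3 or any one vehicle library. Hspa12b, a distant member made mainly by endothelium, was 7.78 ± 0.52 FPKM in imiquimod and 5.20 ± 0.85 FPKM in vehicle cords (0.58 ± 0.13 SE, limma adjusted p = 0.0294), and its call ended without any one library (0.0508 to 0.0721) and with low values left unfiltered, no mean-variance trend or length and GC trends removed (0.0549 to 0.0585). Hspa2 was 5.09 ± 0.51 FPKM in imiquimod and 6.77 ± 0.96 FPKM in vehicle cords and did not pass (-0.40, limma adjusted p = 0.0798), except with quantile normalization and with length and GC trends removed (0.0107 to 0.0499).

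Immediate early genes are switched on within minutes of a stimulus, and handling of tissue can raise them. Of 12 such genes 3 were higher, against 8.74% of all genes tested. Atf3 was 2.62 ± 0.92 FPKM in imiquimod and 0.697 ± 0.22 FPKM in vehicle cords (1.74 ± 0.32 SE, limma adjusted p = 0.0158), and Ier2 and Junb were the others. The call of Junb ended without any one library other than imiquimod replicate 2 and in 6 of the other alternatives (0.0503 to 0.158). Leaving out 1 library gave 0 to 4 higher, with 0 without imiquimod replicate 1 or vehicle replicate 1 or 2. The call of Atf3 ended without vehicle replicate 1 or 2 or imiquimod replicate 1 or 3 (0.0533 to 0.058).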
